A study of Rattus norvegicus with 8 samples.

Results

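The miR-17-92 cluster and its paralogs were followed through synovial tissue, the lining of the joint, of Sprague-Dawley rats. The members were 10 mature miRNAs chosen by name, every array row with that name and no control flag being used. They make up 10 of the 758 rat miRNAs on the array and 20 of its 1806 probes, each member having 2 probes with 8 spots each. Total RNA of 8 samples was hybridised to single-colour (Cy3) Agilent miRNA arrays. The anterior cruciate ligament of the left knee was cut in 4 samples (ACLT), which makes the joint unstable and serves as an osteoarthritis model. In the other 4 it was exposed but left whole (sham surgery). All tissue came from the side of the left knee opposite the incision, so every sample had gone through surgery. The labels place sampling at 2 weeks in the protocol, 14 days in the title and 7 days in the design text, and give no age or sex. They number the replicates without saying whether each was an animal of its own. The p-values below therefore reflect only the spread among these samples, which may be technical.

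The miR-17-92 cluster is a primary transcript cut into several miRNAs. It is transcribed under MYC and E2F factors, which drive cells into the cell cycle, and it is also known as oncomiR-1 for its amplification in lymphomas. The miR-17 and miR-20 group holds down cell cycle brakes such as p21 (Cdkn1a), and miR-92a and miR-25 share targets such as the pro-apoptotic Bim. In inflamed synovium fibroblast-like cells multiply and leukocytes enter, and both kinds of cell can carry these miRNAs.

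The mature sequences are shown because the seed (bases 2 to 8, in capitals), which largely sets the targets of a miRNA, divides the members into 4 groups. All 10 names matched RefSeq entries on build GRCr8, and U is written as there. The prefix rno-, for rat, is left out after these lines. The group with seed AAAGUGC holds 5 members.
rno-miR-17-5p: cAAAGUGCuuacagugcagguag
rno-miR-20a-5p: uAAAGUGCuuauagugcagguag
rno-miR-20b-5p: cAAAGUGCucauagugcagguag
rno-miR-93-5p: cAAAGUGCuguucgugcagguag
rno-miR-106b-5p: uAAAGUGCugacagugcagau
The seed of miR-18a-5p differs by a single base within the cluster.
rno-miR-18a-5p: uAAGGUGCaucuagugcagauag
The miR-19 pair has a seed of its own.
rno-miR-19a-3p: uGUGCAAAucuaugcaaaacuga
rno-miR-19b-3p: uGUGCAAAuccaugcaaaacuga
Another seed is shared by miR-92a and miR-25.
rno-miR-92a-3p: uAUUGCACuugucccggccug
rno-miR-25-3p: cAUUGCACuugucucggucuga

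Several members with 1 seed are close outside it too, though miR-93-5p and miR-106b-5p differ at 5 of the 21 bases compared. Counted from the 5′ end, miR-19a-3p and miR-19b-3p differ by U11C alone, miR-17-5p and miR-20a-5p by C1U and C12U, and miR-20a-5p and miR-20b-5p by U1C and U10C. miR-92a-3p and miR-25-3p differ by U1C, C14U and C18U over the 21 bases they can be compared on. Probes for such near copies can bind each other's target, and how far they did was not tested. For miR-17-5p, miR-19b-3p and miR-92a-3p the annotation has a precursor in each of 2 clusters, so their signal cannot be assigned to either.

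On GRCr8 the miR-17-92 cluster lies on the plus strand at chr15:98587848-98588632 and holds 6 precursors (miR-17, 18a, 19a, 20a, 19b-1 and 92a-1). The miR-106a-363 cluster lies on the minus strand at chrX:137342777-137343647 with 5 precursors. That of rat miR-106a (Mir106a) gives the same mature sequence as miR-17-5p, and the others are those of miR-20b, miR-19b-2, miR-92a-2 and miR-363. The miR-106b-25 cluster lies on the minus strand at chr12:22156641-22157123 with 3 precursors (miR-106b, 93 and 25). The upper coordinate is that of mature miR-106b-5p, since the sequence set used has no hairpin entry for miR-106b, so the precursor may reach further. This stretch falls inside the span of Mcm7, a gene for a subunit of the replicative helicase. The annotation lists no gene spanning the other clusters.

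The arrays differed in overall brightness within both groups, which touches every value here. Taken over the 136 probes that were well above background throughout, the 75th percentile of an array lay at 797 to 1185 on 3 brighter arrays (ACLT replicates 1 and 2, sham replicate 4) and at 289 to 353 on the other 5. The labelling spike-in RNA was also higher on those 3, at 312 to 476 against 141 to 199. On all arrays 0 spots were saturated, and negative control spots averaged 3.33 to 4.98. Mesenchymal markers (3 of 3 detected on all 8 arrays) and no epithelial marker (0 of 5 detected on any) were seen, while the summed scaled signal of 8 striated muscle miRNAs ran from 0.122 to 16.4, both after ACLT. In bulk tissue, fewer cells of a type and less RNA per cell cannot be told apart.

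Of the 10 members, the scanner software detected 4 on all 8 arrays, namely miR-106b-5p, miR-25-3p, miR-20a-5p and miR-19b-3p. miR-92a-3p was detected on 7 arrays, miR-93-5p on 6, miR-20b-5p on 3, miR-17-5p and miR-19a-3p on 2 each, and miR-18a-5p on 1. By array, 7, 9, 6 and 5 members were detected on the ACLT replicates in their numbered order, and 4, 6, 6 and 10 on the sham replicates. The counts of the groups overlap, and the highest of each group are on brighter arrays. miR-20b-5p, miR-17-5p, miR-19a-3p and miR-18a-5p were detected on brighter arrays alone (on 3, 2, 2 and 1 of the 3) and on 0 of the 5 dimmer ones. Of the 15 other arms made from the same precursors, miR-363 included, and of miR-92b-3p and miR-32-5p, which share the seed of miR-92a, none was detected on any array.

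**Figure D1:**
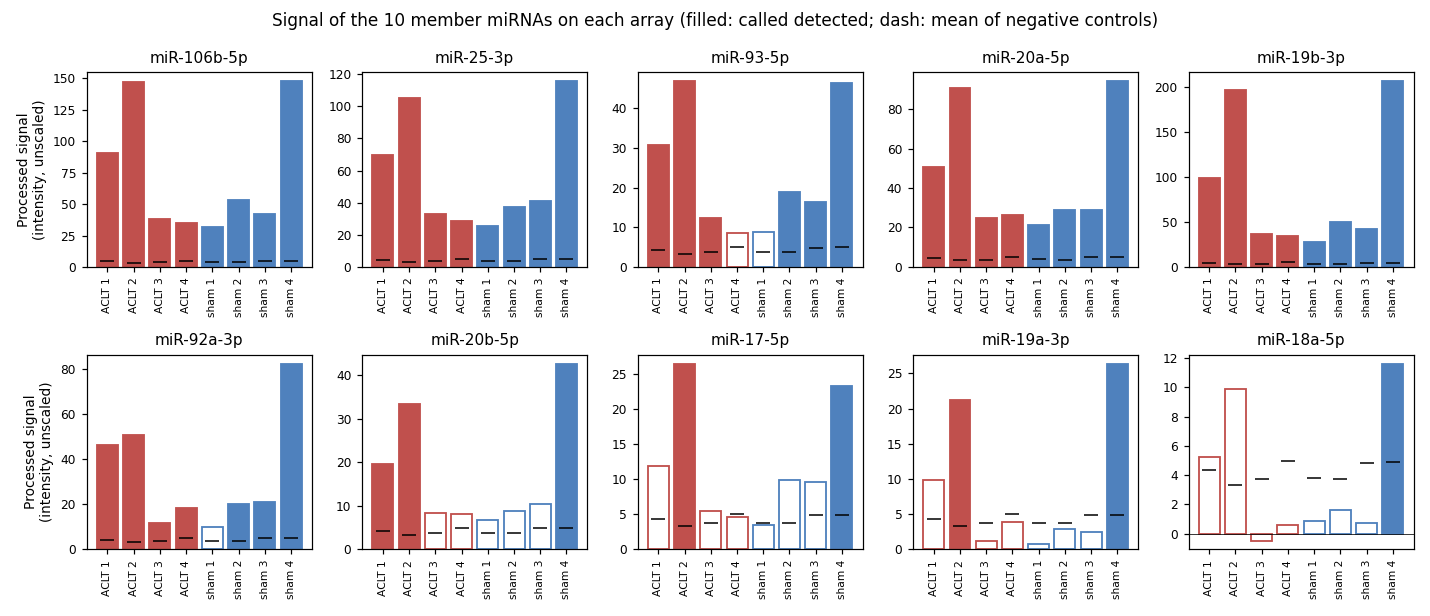
Processed signal (linear intensity, not scaled between arrays) of the brighter probe of each member on each of the 8 arrays. Filled bars mark arrays on which the miRNA was called detected, open bars those on which it was not, and dashes the mean of the negative control spots. The 3 tall bars in every panel are ACLT replicates 1 and 2 and sham replicate 4.

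The miR-106b-25 cluster gave 2 of the members seen on every array. The signal of miR-106b-5p, which has the miR-17 seed, was 90.9, 147, 38.0 and 34.8 after ACLT (replicates 1 to 4, an order kept from here on) and 31.4, 53.2, 42.1 and 148 after sham surgery. That of miR-25-3p, with the miR-92 seed, was 69.8, 105, 32.9 and 28.6 after ACLT and 25.6, 37.5, 41.0 and 116 after sham surgery. For both, the groups overlap almost over their whole range and the 3 brighter arrays stand above the other 5. The other member of the cluster, miR-93-5p, again with the miR-17 seed, was at 30.7, 46.8, 12.4 and 8.503 after ACLT and 8.85, 18.8, 16.4 and 46.4 after sham surgery. It was not detected on ACLT replicate 4 and sham replicate 1, its dimmest arrays, and was therefore not detected on all arrays of either group, the condition for testing.

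From the miR-17-92 cluster itself, miR-20a-5p, a close copy of miR-17-5p, had signals of 50.9, 90.9, 24.7 and 26.2 after ACLT and 21.3, 29.1, 28.7 and 94.1 after sham surgery. miR-19b-3p, with a precursor in this cluster and another on chromosome X, had 98.6, 196, 36.5 and 34.7 after ACLT. After sham surgery it had 27.9, 50.3, 42.0 and 206.2. The same arrays were high for both, and neither separated the groups. miR-92a-3p, abundant in endothelial and red blood cells, likewise has a precursor at the end of this cluster and another on chromosome X. It was at 46.4, 50.9, 11.6 and 18.5 after ACLT and 10.05, 20.2, 21.0 and 82.3 after sham surgery. It was not detected on sham replicate 1, and its brighter probe was well above background on 6 arrays, the exceptions being ACLT replicate 3 and sham replicate 1.

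The 4 weakest members came close to the negative controls on the dimmer arrays. miR-17-5p, after which the cluster is named, was at 11.9, 26.4, 5.41 and 4.64 after ACLT and 3.45, 9.96, 9.63 and 23.3 after sham surgery. miR-20b-5p, from the X chromosome and with the same seed, reached 33.4 on ACLT replicate 2 and 42.6 on sham replicate 4. It lay at 6.68 to 10.4 on the dimmer arrays. Both were measured in each group on brighter arrays and were below detection on all dimmer ones. miR-19a-3p reached 21.1 and 26.3 on those 2 arrays and lay at 0.787 to 3.90 on the dimmer ones. miR-18a-5p, the lone member with its seed, reached 11.6 on sham replicate 4, the single array where it was detected, and its probes were well above background on no array. No difference between the groups is given for these 4 members, none of which was detected throughout a group.

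The spread over spots gives the precision of a value within its array, and leaves out differences between arrays such as those in labelling. Over the spots of the brighter probe of a member on an array, the coefficient of variation had a median of 5.73% for miR-19b-3p, 7.00% for miR-25-3p, 7.98% for miR-106b-5p, 9.22% for miR-20a-5p and 10.2% for miR-92a-3p. It was 15.05% for miR-93-5p, 19.5% for miR-20b-5p, 25.1% for miR-17-5p and 57.4% for miR-19a-3p. For miR-18a-5p it is not given, since its signal fell below 0 on ACLT replicate 3. The second probe of a miRNA was dimmer. For miR-20a-5p it lay 0.63 to 1.00 log2 units under the first, for miR-106b-5p 0.94 to 1.31 and for miR-19b-3p 2.06 to 2.69, gaps that varied by under 1 log2 unit between arrays. For these 3 the second probe was well above background on 4, 4 and 3 arrays, so the gaps include values near background. For miR-20b-5p it was on 1 array. For miR-25-3p, miR-92a-3p, miR-93-5p, miR-17-5p and miR-19a-3p the second probe was well above background on 0 arrays, so those members rest on 1 probe. For miR-18a-5p neither probe was on any array.

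To compare the groups, signals were expressed relative to that percentile of their array, values under a floor of 0.0449 were raised to it and log2 was taken, which puts the floor at -4.48. After this step miR-17-5p, miR-18a-5p, miR-19a-3p and miR-20b-5p were at the floor on all 8 arrays and miR-93-5p on 6. A value at the floor is not always an undetected one. On ACLT replicates 1 and 2 and sham replicate 4 the floor equals 35.8, 49.3 and 53.2 in unscaled units. There miR-93-5p (30.7, 46.8 and 46.4) was well above background yet raised to the floor. On the last 2 of these arrays so were miR-20b-5p (33.4 and 42.6) and miR-17-5p (26.4 and 23.3). limma was run on 113 miRNAs, each detected throughout at least 1 group, and 5 members were among them. The question was which of them differ in the synovium once the ligament is cut. After Benjamini-Hochberg adjustment limma placed 0 of the 5 members under a p of 0.05, and 0 of 113 miRNAs (0%) in all. At an unadjusted p under 0.05 limma had 0 of 5 members and 8 of 113 miRNAs (7.08%). The values of the groups stood apart without overlap for 0 of the 5 and for 0 of 113 miRNAs (0%).

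The scaled log2 level of miR-25-3p was -3.51, -3.38, -3.42 and -3.42 after ACLT and -3.50, -3.08, -3.11 and -3.36 after sham surgery. All 4 ACLT arrays lay in a narrow band. Of the sham arrays only replicate 1 lay inside it, and the others lay above it. The means were -3.43 ± 0.06 and -3.26 ± 0.20 (SD, n = 4 each), a log2 difference (ACLT minus sham) of -0.17 with a 95% interval of -0.42 to 0.07 (limma adjusted p = 0.761). miR-106b-5p was at -3.13, -2.90, -3.22 and -3.13 after ACLT and -3.20, -2.57, -3.07 and -3.01 after sham surgery. Its highest array was sham replicate 2, and the groups overlap. The difference was -0.13 with an interval of -0.48 to 0.21 (limma adjusted p = 0.8515).

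miR-20a-5p was at -3.97, -3.59, -3.84 and -3.54 after ACLT and -3.77, -3.45, -3.62 and -3.66 after sham surgery, a difference of -0.11 (-0.39 to 0.17, limma adjusted p = 0.8515). Sham replicate 2 was again highest, and ACLT replicate 1 lowest. miR-19b-3p was at -3.02, -2.48, -3.27 and -3.14 after ACLT and -3.37, -2.66, -3.07 and -2.52 after sham surgery. It had the widest spread of the 5 (SD 0.35 and 0.39, n = 4 each), with 1 brighter array of each group on top. The difference was -0.07 (-0.65 to 0.51, limma adjusted p = 0.964), and it turned positive without ACLT replicate 3 (0.029), sham replicate 2 (0.013) or sham replicate 4 (0.058). miR-92a-3p was at -4.10, -4.43, -4.48 and -4.05 after ACLT and -4.48, -3.98, -4.07 and -3.85 after sham surgery, with ACLT replicate 3 and sham replicate 1 at the floor. Its difference was -0.17 (-0.56 to 0.22, limma adjusted p = 0.8515). Without a floor it was -0.19 with a wider interval, -0.85 to 0.47.

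**Figure D2:**
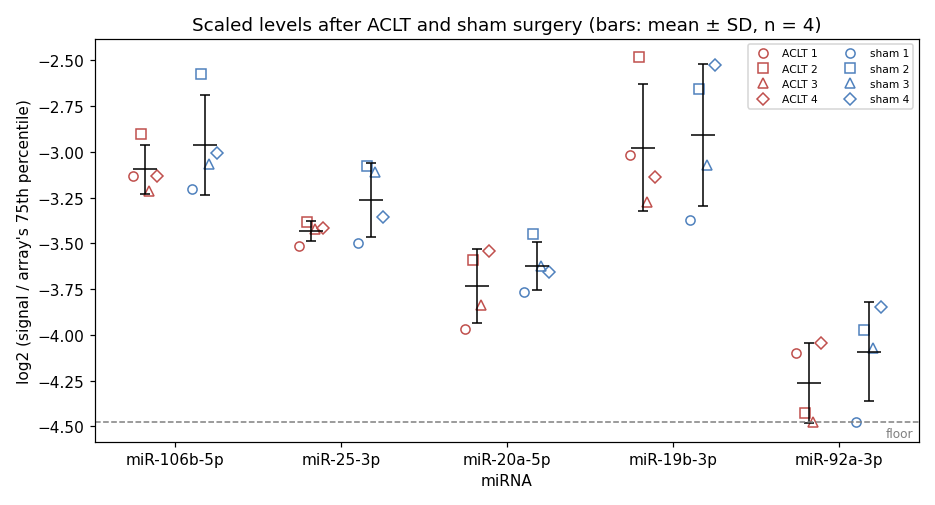
Scaled log2 level (signal over the array's 75th percentile) of the 5 tested members on each array, with marker shapes for replicate numbers and bars for the mean ± SD of 4 arrays. The groups overlap for each member, and the dashed line is the floor at -4.48; levels of different miRNAs come from different probes and are not compared.

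The bounds of the 5 intervals all lay within 0.65 log2 units of 0 under this scaling and floor. All 5 differences were negative, with a median of -0.13, where 73 of all 113 tested miRNAs (64.6%) had a lower mean after ACLT and the median was -0.07. The sign did not hold under other scalings. With no scaling all 5 were positive (median 0.19, all tested miRNAs 0.19), and likewise with the 75th percentile over all probes (0.24 against 0.25) and with quantile normalization (0.089 against 0.0043). With scaling to the labelling spike-ins all 5 were negative (-0.32 against -0.28). Without striated muscle probes in the percentile, 3 were positive and 2 negative (median 0.010 against 0.031). The median of the members shifted together with that of all tested miRNAs, which ran from -0.28 to 0.25 over these scalings. Another divisor per array shifts every miRNA above the floor alike, so this shared move says nothing about the members. Quantile normalization is not such a divisor.

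**Figure D3:**
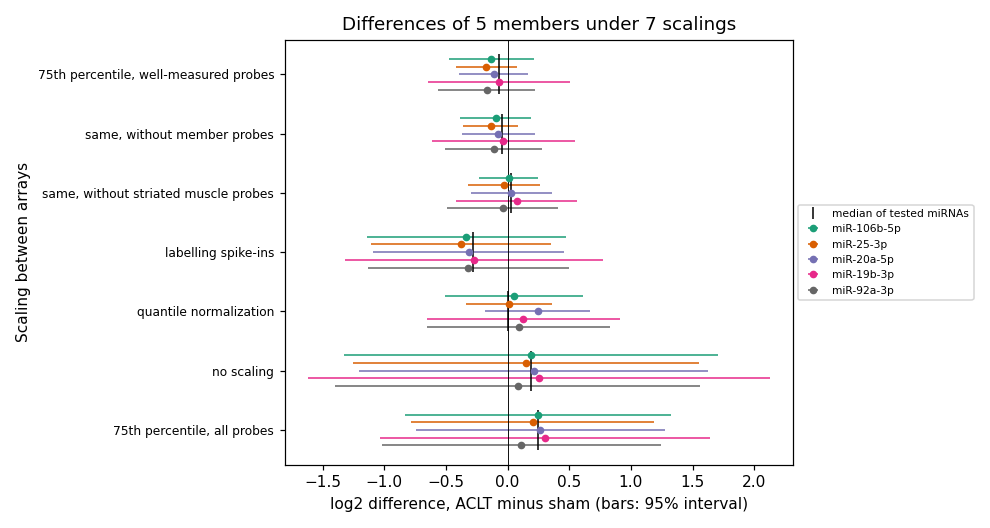
Log2 difference (ACLT minus sham) of the 5 tested members under 7 scalings between arrays, with 95% intervals from limma; the upright black ticks are the median over the tested miRNAs. Every interval includes 0, and the median of the 5 points ran from -0.32 (labelling spike-ins) to 0.24 (75th percentile over all probes). A change of divisor shifts miRNAs above the floor alike.

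All arrays shared 1 slide, on which row 1 carried replicates 1 and 2 of each group and row 2 the rest. Within row 1 the difference was -0.16 for miR-25-3p, -0.13 for miR-106b-5p, -0.17 for miR-20a-5p, -0.040 for miR-92a-3p and 0.27 for miR-19b-3p. Within row 2 it was -0.19, -0.14, -0.049, -0.30 and -0.41 in that order. In row 1 both ACLT arrays were brighter ones and both sham arrays dimmer ones, so ligament cutting and brightness cannot be told apart there. In row 2 the only brighter array was sham replicate 4. Among the 5 dimmer arrays alone the 5 differences ran from -0.22 to -0.076, and with brightness as a block from -0.20 to -0.094, all negative at this scaling. limma passed no member in any of these.

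A difference between 2 members on the same array does not depend on the scaling, and shows how tightly they move together. These differences were taken as log2 of the unscaled signals, each centred on its mean over 8 arrays. miR-20a-5p and miR-25-3p come from different chromosomes and have different seeds, and their difference had an SD of 0.13 over the 8 arrays. Each alone had an SD of 0.86 and 0.85 unscaled, which includes the brightness of the arrays, and 0.17 and 0.17 after scaling. The SD was 0.15 for miR-25-3p against miR-106b-5p, neighbours in 1 cluster, and 0.15 for miR-20a-5p against miR-106b-5p, which share a seed. For miR-20a-5p against miR-19b-3p, with neighbouring precursors on chromosome 15 and a further miR-19b precursor on chromosome X, it was 0.30. Over all 3486 pairs of the 84 tested miRNAs well above background on every array the median SD was 0.47. Of those pairs, 31.5% had an SD no greater than 0.32, the highest among the 6 pairs of members in that set.

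The 4 pairs with miR-92a-3p, whose brighter probe was well above background on 6 arrays, had the widest spread, with an SD of 0.35 to 0.37. Among the 4 members well above background on every array, miR-19b-3p departed most from the others, with an SD of 0.24 to 0.32. Its difference from miR-20a-5p was 0.22 to 0.39 on the 3 brighter arrays and -0.34 to 0.053 on the 5 dimmer ones. From miR-106b-5p it was 0.030 to 0.39 against -0.26 to -0.093, and from miR-25-3p 0.092 to 0.50 against -0.37 to 0.015. In all 3 pairs the brighter arrays lay above the dimmer ones without overlap, as they did one way or the other in 39.2% of all such pairs. The part of brightness in this was not tested. Between ACLT and sham these pair differences overlapped for 10 of 10 pairs of tested members, where 2.5% of the 3486 pairs did not. Those 3486 include 6 of the 10, since miR-92a-3p was not well above background on every array. In the 10 pairs the group means differed by 0.12 at most in size.

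**Figure D4:**
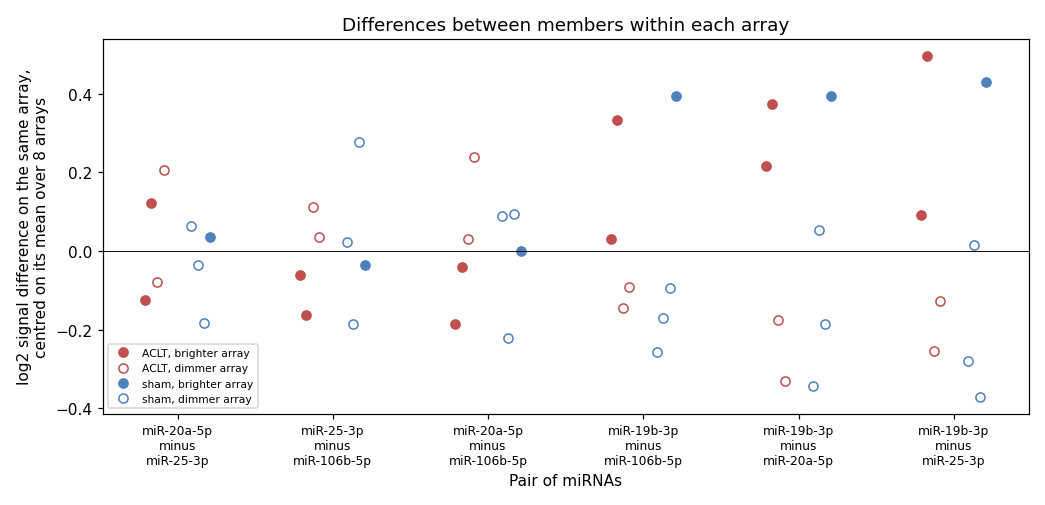
Differences in log2 signal between 2 members on the same array, centred on their mean over the 8 arrays, for the 6 pairs of members measured well on every array. Filled points are the 3 brighter arrays; in the 3 pairs with miR-19b-3p these lie above the open points, while ACLT (red) and sham (blue) overlap in every pair.

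Across the 8 arrays the mean of the 5 tested members, each centred, was highest on sham replicate 2 (0.29) and sham replicate 4 (0.16) and lowest on sham replicate 1 (-0.23) and ACLT replicate 3 (-0.21). Of the 106 other tested miRNAs that varied, those most like it by Pearson's r were miR-10a-5p, of the Hox clusters (r = 0.94, Spearman's rho = 0.93), and miR-144-3p, an erythroid miRNA (r = 0.90, rho = 0.93). miR-126a-3p, of endothelium (r = 0.88, rho = 0.86), the erythroid miR-451-5p (r = 0.81, rho = 0.83) and miR-143-3p, of smooth muscle (r = 0.78, rho = 0.57), followed. Over all 106 the median r was 0.11. Without the 2 sham arrays farthest from the median of the members (replicates 1 and 2), r was 0.93, 0.95, 0.72, 0.89 and 0.77 for the 5 in that order. No p is given, since they were picked as the highest of 106 and all values of an array share its divisor.

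The level of miR-144-3p was -3.17, -2.71, -3.87 and -3.10 after ACLT and -3.48, -2.26, -2.32 and -2.04 after sham surgery. It was low on ACLT replicate 3 and sham replicate 1, where miR-92a-3p was at the floor, and high on the other sham arrays. The other erythroid marker, miR-486, was not among the 5 most alike, and its difference had the opposite sign (0.14, SE 0.51, limma adjusted p = 0.964, at the floor on 4 arrays), against -0.69 for miR-144-3p and -0.53 for miR-451-5p (limma adjusted p = 0.732 and 0.8515). All 3 erythroid markers were detected on all 8 arrays, with a summed scaled signal of 0.521 to 0.947 after ACLT and 0.488 to 1.47 after sham surgery. For endothelium 1 of 2 markers was detected on all arrays and miR-126a-5p on none, and the sum was 0.860 to 1.09 and 0.909 to 1.40. Of the 6 leukocyte markers 4 were detected on all arrays, with sums of 0.443 to 0.573 and 0.477 to 0.602. Their part in the level of the members was not tested.

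**Figure D5:**
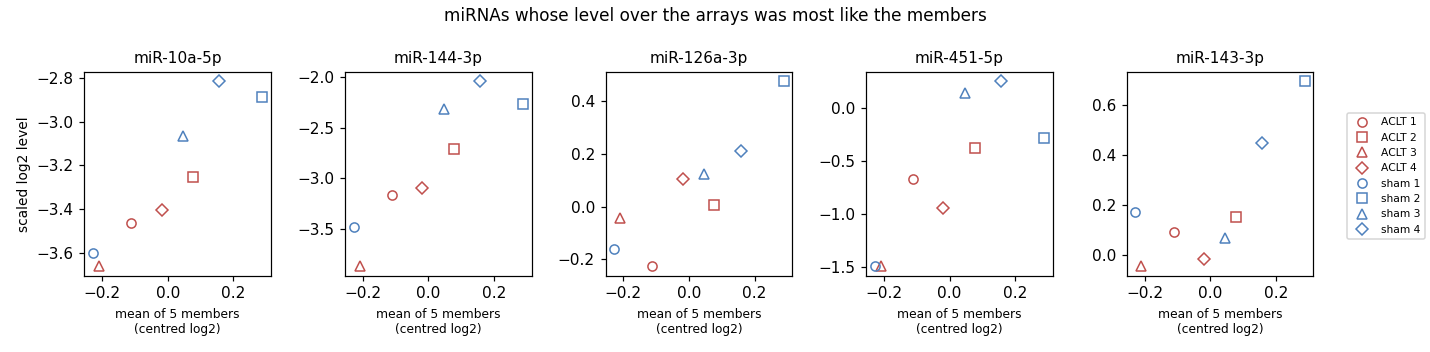
Scaled log2 level of the 5 miRNAs most like the members (vertical axes) against the mean of the 5 tested members (horizontal axes, centred log2), 1 point per array. The points rise together in each panel, with r from 0.78 (miR-143-3p) to 0.94 (miR-10a-5p).

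MYC, which raises the miR-17-92 transcript, is known to hold down another set of miRNAs, among them let-7, miR-15/16, miR-26, miR-29, miR-30 and miR-34a. Of 27 such miRNAs all 27 were tested, 12 had a positive and 15 a negative difference, and limma passed 0 of them (0 also at an unadjusted p under 0.05). Their median difference was -0.014, against -0.07 over all tested miRNAs. The smallest p-values were those of miR-34a-5p (0.58, limma adjusted p = 0.645), miR-22-3p (0.34, limma adjusted p = 0.785), miR-29c-3p (0.31, limma adjusted p = 0.792) and let-7d-5p (0.14, limma adjusted p = 0.8515).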

How the data were processed

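Per the file headers, spots were quantified by Feature Extraction 10.7.3.1 from Agilent, with a grid naming build rn4. The deposited processed signals are linear intensity values that the authors' software had background-subtracted and, per the file headers, not scaled between arrays. The value table deposited by the authors holds the same numbers as that software's summary of each miRNA (largest difference 0; median of each column 0.1, which stands for a miRNA not detected), so it is linear and not centred. Per the labels, labelling started from 50 ng of total RNA. The detection and background calls are flags (coded 0 or 1, no other unit) of the deposited files.

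Control spots and spots marked as outliers (9.01% to 11.1% per array) were dropped before averaging over each probe. A probe was well above background where at least 0.5 of its spots were. Signals were divided by the array's 75th percentile, taken over probes well above background throughout. The floor is the median over arrays of the lowest scaled signal well above background. A miRNA was represented by its brightest probe over all 8 arrays. limma 3.58.1 in R 4.3.3 (lmFit, eBayes) compared 4 ACLT with 4 sham arrays without covariate, with Benjamini-Hochberg adjustment over 113 miRNAs. The limma step alone was tested on simulated data with independent noise, without brightness differences, scaling, floor or filter. Sequences and clusters come from RefSeq (GRCr8). Spots well above background made up 10.5% to 17.0% per array; the number of arrays limits the precision.

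The members, lists and rules for named miRNAs (all members, other arms, same-seed miRNAs, 4 of the MYC list by smallest p, the 5 most alike) were chosen with earlier results of these data known. Alternatives changed the scaling, probe summary, background correction, filter, floor, variance model, blocks and arrays used; brightness splits and the fit without a floor were added after seeing the data.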

Additional observations from a re-analysis of the deposited data

Results flagged for a closer look

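The 75th percentile of sham replicate 4 was 1185, against 289 to 353 on the other sham arrays, and on the log2 scale the gap to the nearest of them took up 0.858 of the range of its group. It was the 1 array found far from the others of its group among 12 group values examined (5 tested members and the percentile, in 2 groups), where chance gives 0.6. It is also the array on which all 10 members were detected.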

How the results depend on the processing

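No member passed limma in the main comparison or under any of the 31 to 34 alternatives that gave it a value. The count of called miRNAs was 0 in 32 of 34 alternatives, leave-one-out fits included (0 to 0). The exceptions were the authors' value table (1, miR-466d) and slide row 1 alone (4: miR-1224, miR-181b-5p, miR-466b-5p and miR-652-5p). Slide row 1 sets ACLT replicates 1 and 2, both brighter arrays, against sham replicates 1 and 2, both dimmer. Ligament cutting and brightness cannot be told apart in its values. Signs turned, in the order miR-19b-3p, miR-20a-5p, miR-92a-3p, miR-25-3p and miR-106b-5p, with the 75th percentile over all probes (0.31, 0.27, 0.11, 0.20 and 0.24), no scaling (0.25, 0.21, 0.082, 0.15 and 0.19), quantile normalization (0.13, 0.25, 0.089, 0.013 and 0.053) and the authors' value table (0.33, 0.15, 1.51, 0.12 and 0.18). The value of 1.51 includes sham replicate 1 at the 0.1 given where a miRNA is not detected. Without striated muscle probes in the percentile miR-19b-3p, miR-20a-5p and miR-106b-5p turned (0.073, 0.031 and 0.010), with the Feature Extraction summary miR-19b-3p and miR-92a-3p (0.043 and 0.052), and within slide row 1 miR-19b-3p (0.27). Another divisor per array, or none, shifts all miRNAs above the floor alike. Why signs turned under the other settings was not tested. Leaving out 1 array moved miR-19b-3p between -0.235 and 0.058 and left the other 4 negative, but single arrays moved several of them by over 1.5 times: miR-106b-5p lay between -0.21 and -0.0034 (without sham replicates 1 and 2), miR-20a-5p between -0.18 and -0.034 (without ACLT replicates 4 and 1), miR-92a-3p between -0.30 and -0.089 (without sham replicates 1 and 4) and miR-25-3p between -0.25 and -0.11 (without sham replicates 1 and 2). With the probes averaged or the floor doubled, miR-92a-3p was at the floor on all arrays and has no value; the doubled floor left miR-20a-5p at -0.0073. miR-92a-3p was not tested among miRNAs detected on all 8 arrays. Same-numbered replicates deviated together in pairs 2 and 3 (r over 113 miRNAs 0.59 and 0.80). In pairs 1 and 4 they deviated oppositely (-0.19 and -0.41). With unlike numbers, ACLT replicate 4 and sham replicate 3 reached 0.85. Such correlations cannot decide whether the numbers mark pairs, which the labels do not state. The replicate block left 0 calls. Low signal limits 5 of the 10 members to no test.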

Other observations

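Without a floor, the scaled log2 signal of miR-20b-5p lay between -5.44 and -4.80 over the 8 arrays and that of miR-93-5p between -5.17 and -4.07, with the highest value on sham replicate 4 for the former and on sham replicate 2 for the latter. miR-17-5p lay between -6.39 (sham replicate 1) and -4.99 (sham replicate 2). Most of these values are from arrays on which the miRNA was not well above background, so they carry no comparison.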
